A study of Mus musculus with 183 samples.

Results

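S100 proteins, annexins and AHNAK form a small set of calcium-responsive partners at the cell membrane, and the 9 genes described here encode S100A6, S100A10, S100A11, S100A4, AHNAK and annexins A1, A2, A3 and A5. They were taken by symbol from a table of 53380 genes. They were selected on their mock levels, half-lives and binding values in these same data, so those values are given as a description and no p-value is given for any of the 9. Of the 9 genes, 8 passed the filter on low counts among 17209 genes compared for level, S100a4 being the exception. Values for binding by RNA decay factors were present for 4 of the 9 (S100a6, S100a10, Ahnak and Anxa3), among 7240 mRNAs.

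S100 proteins are small EF-hand proteins that change shape on binding calcium and then dock onto partner proteins. Annexins bind acidic phospholipids in a calcium-dependent way. S100A10 and annexin A2 form a heterotetramer beneath the plasma membrane that binds AHNAK, takes part in membrane repair and brings plasminogen to the cell surface, while S100A11 is a partner of annexin A1.

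The libraries came from 2 clonal mouse embryonic stem cell (mESC) lines on a male 129 × C57BL/6 background, grown in serum with LIF. Clone 5F carried Rosa26Cre-ERT2/- and Skiv2l fl/fl. Clone 7E was labelled Rosa26Cre-ERT2/BirA-V6, Skiv2l 3xFLAG-Avi/3xFLAG-Avi and Aven-/-, and the study's methods describe it as a Skiv2l fl/fl conditional line made in Aven-/- cells. SKIV2L is the helicase of the Ski complex, which feeds RNA to the cytoplasmic exosome, and AVEN is a protein that binds it. Both clones express a tamoxifen-inducible Cre and were sampled without 4-hydroxytamoxifen (4OHT; day 0) and after 4 days in 0.1 µM 4OHT (day 4). At each day, RNA was taken from mock-treated cells and after 120, 240 and 360 min of actinomycin D, which blocks transcription. The mock cells received DMSO for 360 min and serve as the 0 min point. The labels give the actinomycin D dose in a unit that differs from the one in the methods, so no dose is stated. This gave 47 RNA-seq libraries in 16 groups, with 3 libraries in each group except clone 5F at day 0 and 120 min, which had 2. The methods call these replicates technical, so each error covers the spread between such libraries only. Each genotype was a single clone, so genotype and clone cannot be told apart.

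Total gene counts ran from 24440935 to 34114250 per library. Levels are CPM, counts relative to library size, after scaling by size factors within the mock libraries, and in bulk RNA a lower level cannot be told apart from fewer cells carrying the transcript. Skiv2l stood at 144 ± 1.26 CPM (SD, n = 3) in clone 5F at day 0 and at 143 ± 10.2 in the libraries labelled day 4 of that clone, a log2 difference of -0.01 ± 0.05 (SE). The counts are summed over the whole gene, and exons outside the deleted part can keep their reads. Whether this accounts for the unchanged level was not tested, and these counts do not show a loss of Skiv2l in clone 5F. Skiv2l was far lower in clone 7E (33.5 ± 2.33 CPM at day 0) and lower again at day 4 (13.4 ± 0.659 CPM, log2 difference -1.32 ± 0.07, adjusted p = 3.7e-13 by edgeR with Benjamini-Hochberg adjustment). Aven differed between the clones at day 0 by -3.90 ± 0.11 on the log2 scale (34.7 against 2.31 CPM, edgeR adjusted p = 4.48e-18). All 8 ES cell markers examined were at 1 CPM or more in every group, and their summed level was 3186 to 3265 CPM in clone 5F at day 0 and 2695 to 2755 CPM in clone 7E at day 4. The synthetic ERCC RNAs added to each sample made up 0.275 to 0.32% of the counts in both clones at day 0 and in clone 5F at day 4, but 0.64 to 0.659% in clone 7E at day 4. Scaling each library by its own ERCC counts therefore moved the median log2 difference of all genes by -1.1 in clone 7E at day 4, by -1.03 for the difference between the clones in the day 4 response, by -0.17 between the clones at day 0 and by -0.07 in clone 5F. The spike-ins went into the lysis buffer at a set volume per sample. In values scaled by them, less RNA per cell cannot be told apart from fewer cells per sample. Directions below are relative to the typical gene, and members whose sign turned under their own spike-ins are named beside it.

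S100a6 lies on chromosome 3 (chr3:90612882-90624181, plus strand, GRCm38; ENSMUSG00000001025.8) and encodes a calcium sensor that binds annexin A2 among other partners. In the mock libraries it was at 32.6, 30.3 and 35.1 CPM in clone 5F at day 0 and at 41.8, 43.5 and 37.0 CPM at day 4. In clone 7E it was at 55.4, 52.8 and 52.7 CPM at day 0 and at 243, 230.4 and 221 CPM at day 4. The 4 groups did not overlap in any pair, and the libraries of clone 7E at day 4 stood far above the rest. The day 4 difference was 0.32 ± 0.06 in clone 5F and 2.11 ± 0.06 in clone 7E on the log2 scale, the latter larger than that of 99.3% of the genes compared. With their own spike-ins the value in clone 7E was 1.01 ± 0.06.

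S100a10, the annexin A2 partner that binds AHNAK, lies further along chromosome 3 (chr3:93555080-93564643, plus strand; ENSMUSG00000041959.14). It was at 63.5, 61.0 and 64.1 CPM in clone 5F at day 0, at 65.7, 62.9 and 56.2 CPM at day 4, and at 62.2, 54.1 and 60.3 CPM in clone 7E at day 0. These 3 groups overlapped. Only the libraries of clone 7E at day 4 stood apart, at 103, 99.6 and 91.7 CPM, a log2 difference from day 0 of 0.74 ± 0.06 that turned to -0.36 ± 0.06 when each library was scaled by its own spike-ins. In clone 5F the day 4 difference was -0.03 ± 0.06.

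S100a11, the partner of annexin A1, is the neighbour of S100a10 (chr3:93520488-93526287, plus strand; ENSMUSG00000027907.4) and was the lowest of the 8 genes in CPM. It was at 4.14, 4.69 and 4.17 CPM in clone 5F at day 0, at 5.14, 3.69 and 5.29 CPM at day 4, at 3.37, 3.04 and 2.65 CPM in clone 7E at day 0 and at 4.89, 5.37 and 6.37 CPM at day 4. The clone 5F groups overlapped, whereas the clone 7E groups did not. The day 4 difference was 0.12 ± 0.14 in clone 5F and 0.88 ± 0.15 in clone 7E, the latter -0.22 ± 0.15 with own spike-ins.

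S100a4 lies in the same cluster as S100a6, with S100a5 between them (chr3:90603771-90606045, plus strand; ENSMUSG00000001020.8) and encodes a protein that binds non-muscle myosin. It was nearly silent, with 0, 0 and 2 counts in the clone 5F day 0 libraries, 0, 3 and 1 at day 4, 1, 2 and 1 in clone 7E at day 0, and 10, 2 and 4 at day 4. No fold or half-life is given for it. Over 51.7% of its exonic length it overlaps Gm42674, which had 0 counts, and counting by gene drops reads that fall on more than 1 gene, so part of the S100a4 reads may be lost.

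Ahnak encodes the very large scaffold protein AHNAK and lies on chromosome 19 (chr19:8989284-9076914, plus strand; ENSMUSG00000069833.12). It had by far the highest counts per library of the set. It was at 452, 434 and 406 CPM in clone 5F at day 0 and at 835, 816 and 792 CPM at day 4, and at 443, 463 and 389 CPM in clone 7E at day 0 and at 1403, 1307 and 1307 CPM at day 4. The clones overlapped at day 0, and in both clones the day 4 libraries stood above those of day 0. Ahnak had the largest day 4 difference of the 8 genes in clone 5F, 0.92 ± 0.05 on the log2 scale, above 97.8% of genes. In clone 7E the difference was 1.63 ± 0.05, and with own spike-ins both stayed positive (0.85 ± 0.06 and 0.54 ± 0.06).

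Anxa1, which encodes a phospholipid-binding protein known for its anti-inflammatory role, lies on the minus strand of chromosome 19 (chr19:20373428-20390944; ENSMUSG00000024659.14). It was at 14.9, 12.1 and 15.6 CPM in clone 5F at day 0, at 19.0, 19.2 and 16.3 CPM at day 4, at 4.67, 3.92 and 4.13 CPM in clone 7E at day 0 and at 22.0, 19.9 and 19.2 CPM at day 4. Clone 7E thus started below clone 5F and at day 4 stood narrowly above it. Its lowest library at day 4 had 19.19 CPM, against 19.16 in the highest of clone 5F. With own spike-ins clone 7E stayed below (11.1 against 22.6 CPM at day 4). The day 4 difference of Anxa1 in clone 7E, 2.26 ± 0.11, was the largest of the 8 genes and remained positive with own spike-ins (1.17 ± 0.11).

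Anxa2 encodes the core of the heterotetramer with S100A10 (chr9:69453620-69491795, plus strand; ENSMUSG00000032231.14). It was at 30.9, 33.5 and 35.0 CPM in clone 5F at day 0, at 41.3, 38.7 and 38.4 CPM at day 4, at 11.7, 11.5 and 12.0 CPM in clone 7E at day 0 and at 38.8, 35.3 and 33.8 CPM at day 4. As with Anxa1, the clone 7E libraries at day 0 stood below all others, and at day 4 they overlapped both groups of clone 5F, although with own spike-ins they stayed below (19.6 against 43.2 CPM in clone 5F at day 0). The day 4 difference was 0.25 ± 0.06 in clone 5F and 1.62 ± 0.07 in clone 7E (0.52 ± 0.08 with own spike-ins).

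Anxa3 (chr5:96793339-96845966, plus strand; ENSMUSG00000029484.12) and Anxa5 (chr3:36448923-36475894, minus strand; ENSMUSG00000027712.13) complete the annexins of the set, the latter being the protein used to detect exposed phosphatidylserine on dying cells. Anxa3 was at 25.2, 23.5 and 26.5 CPM in clone 5F at day 0, at 31.7, 30.0 and 25.6 CPM at day 4, at 20.1, 20.0 and 19.1 CPM in clone 7E at day 0 and at 61.0, 55.3 and 51.5 CPM at day 4. Anxa5 was at 14.1, 13.8 and 12.4 CPM in clone 5F at day 0, at 16.3, 15.3 and 13.0 CPM at day 4, at 6.76, 6.86 and 7.98 CPM in clone 7E at day 0 and at 11.3, 11.6 and 12.3 CPM at day 4. In clone 7E the day 4 libraries of both genes stood above those of day 0, but Anxa3 ended above clone 5F and Anxa5 below it. With own spike-ins Anxa3 too ended below clone 5F (30.5 against 36.2 CPM). In clone 5F the days overlapped for both genes. The clone 7E differences were 1.50 ± 0.08 for Anxa3 and 0.70 ± 0.10 for Anxa5, and only that of Anxa5 turned negative with own spike-ins (-0.40 ± 0.11).

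**Figure D1:**
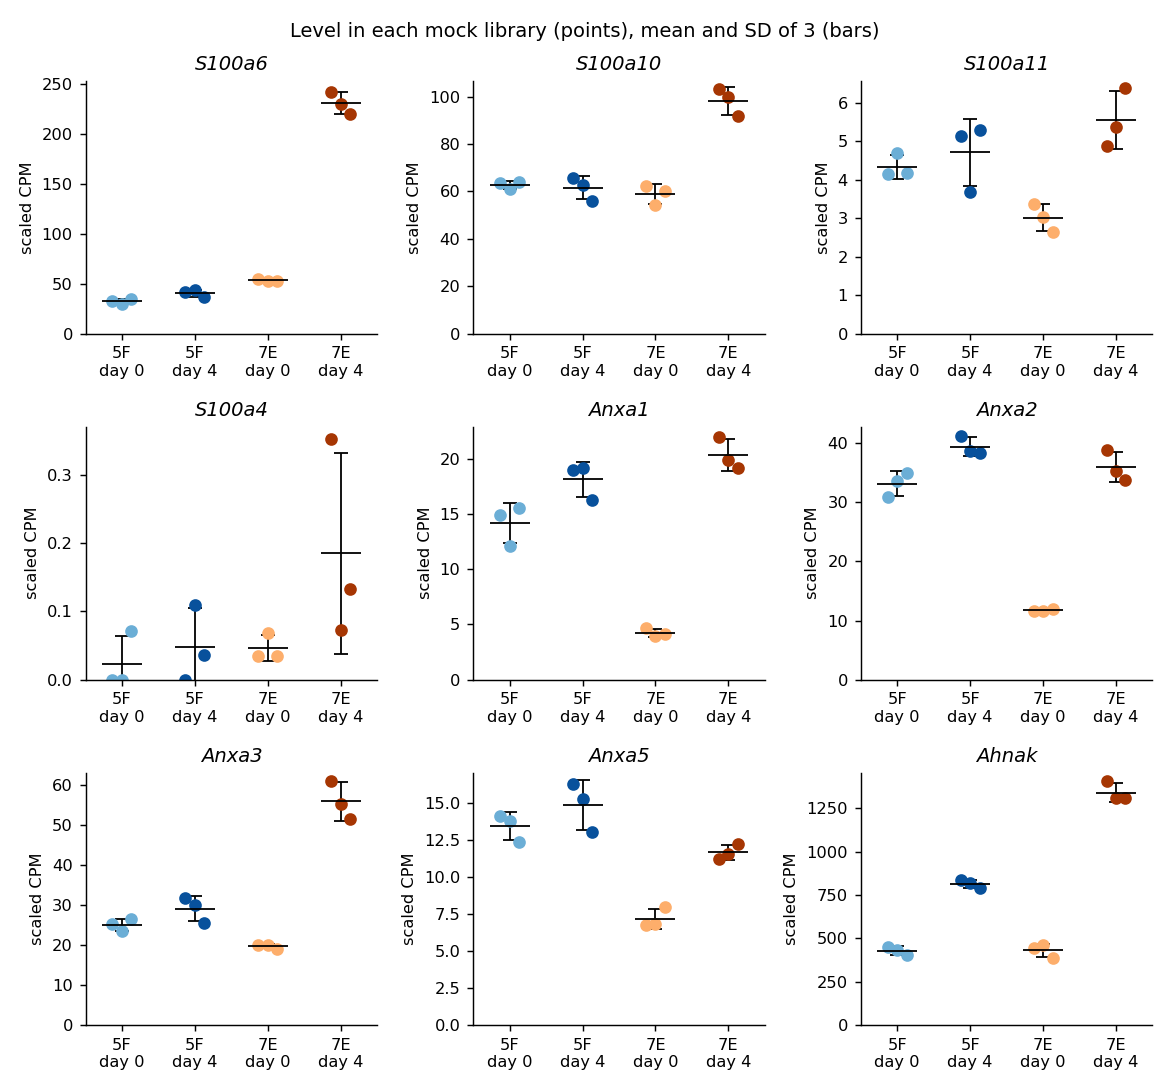
Level of each gene in the mock libraries, one panel per gene, with scaled CPM on the vertical axis (from 0, a separate scale per gene) and the 4 combinations of clone and day on the horizontal axis. Points are libraries and bars are the mean and SD of 3. Clone 7E at day 4 holds the highest libraries of S100a6, S100a10, Ahnak, Anxa3 and, narrowly, Anxa1, while Anxa5 is highest in clone 5F. Scaled by own spike-ins, S100a6 alone of the genes other than the nearly silent S100a4 kept its highest mean in clone 7E at day 4.

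Divided by exonic length, the levels gave an order of abundance between genes. In clone 5F at day 0, S100a10 was highest at 51.9 ± 1.35 CPM per kb (SD, n = 3), followed by S100a6 at 23.9 ± 1.76 and Ahnak at 21.6 ± 1.16, which overlapped. Anxa2 (8.89 ± 0.553) overlapped S100a11 (8.48 ± 0.610), Anxa5 (7.56 ± 0.516) overlapped Anxa3 (6.88 ± 0.408), and Anxa1 followed at 4.88 ± 0.630. In clone 7E at day 4 the order was headed by S100a6 at 169 ± 8.04, followed by S100a10 at 81.0 ± 4.85 and Ahnak at 67.2 ± 2.78 CPM per kb, none of which overlapped. Anxa3 came next at 15.3 ± 1.32, S100a11 (10.8 ± 1.48) overlapped Anxa2 (9.64 ± 0.685), and Anxa1 (7.00 ± 0.503) overlapped Anxa5 (6.58 ± 0.288). S100a4 was the lowest in all 4 groups. The order of S100a6, S100a10 and Ahnak depends on the length used. The exons of S100a6 and S100a10 sum to 1367 and 1212 nt, but the transcripts used for the binding values have 464 and 685 nt, and with these the mean of S100a6 would also stand above that of S100a10 in clone 7E at day 0 and above that of Ahnak in clone 5F at day 4.

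The windows of 250 bases before the RefSeq start of transcription (RefSeq, GRCm38.p6) were examined for what the genes share beyond these readouts, and 7 of the 9 genes had a window in the table used. S100a10 and Anxa3 had none. Shown are S100a6 and S100a4, of the same cluster but very different level, with S100a11 and Ahnak, which hold several matches of 4 short motifs, printed 5′ to 3′ on the gene's strand with matches in capitals. They lie at chr3:90612644-90612893, chr3:90603520-90603769, chr3:93520246-93520495 and chr19:8989034-8989283, all on the plus strand.
S100a6: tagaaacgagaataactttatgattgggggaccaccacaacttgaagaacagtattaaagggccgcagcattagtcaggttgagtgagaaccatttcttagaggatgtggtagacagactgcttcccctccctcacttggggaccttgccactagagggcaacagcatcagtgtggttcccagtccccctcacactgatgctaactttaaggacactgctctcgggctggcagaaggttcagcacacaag
S100a4: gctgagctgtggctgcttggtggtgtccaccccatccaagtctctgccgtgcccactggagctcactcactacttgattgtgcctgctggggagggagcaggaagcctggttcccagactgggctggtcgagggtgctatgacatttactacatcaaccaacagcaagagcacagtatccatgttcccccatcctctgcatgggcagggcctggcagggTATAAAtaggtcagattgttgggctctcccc
S100a11: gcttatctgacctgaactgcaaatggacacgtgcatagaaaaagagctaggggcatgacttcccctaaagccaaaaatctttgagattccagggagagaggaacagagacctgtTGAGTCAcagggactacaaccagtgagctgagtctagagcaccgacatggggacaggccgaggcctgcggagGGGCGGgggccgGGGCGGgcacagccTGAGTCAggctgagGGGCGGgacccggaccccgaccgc
Ahnak: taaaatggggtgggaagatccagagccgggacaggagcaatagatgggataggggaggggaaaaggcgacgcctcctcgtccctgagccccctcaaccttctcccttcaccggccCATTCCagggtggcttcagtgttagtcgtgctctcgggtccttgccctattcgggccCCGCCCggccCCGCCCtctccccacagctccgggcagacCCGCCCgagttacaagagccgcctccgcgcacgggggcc
The motifs, searched on both strands and chosen after the expression values were known, were the AP-1 site TGACTCA, the TEAD site GGAATG, the TATA box TATAAA and the GC box GGGCGG. The AP-1 letters were found in 2 of the 7 windows, those of S100a11 (136 and 38 bases before the start) and Anxa2 (95 bases), against 4.46% of all 32851 windows. The TEAD letters were found in Ahnak (135 bases) and Anxa1 (236 bases), against 12.6% of windows, and the TATA box in S100a4 (31 bases), Anxa1 (32 bases) and Anxa2 (17 bases), against 12.4%. GC boxes were found in S100a11, Ahnak and Anxa2, each with 3, against 32.7% of windows, while the S100a6 and Anxa5 windows held none of the 4 motifs. The window of Anxa1 lies wholly, and that of Anxa2 in its last part, inside the gene model used for the counts, and neither is printed. The last few bases of the S100a6, S100a11 and Anxa5 windows also lie inside the gene models. GC content ranged from 46.0% in Anxa1 to 66.4% in Ahnak, against a median of 52.4% over all windows. No match overlapped another, and none of the 4 motifs was common to all 7 windows.

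Between day 4 and day 0 in clone 7E, all 8 genes compared were higher and past the threshold (a Benjamini-Hochberg adjusted p of 0.05 over all genes in edgeR's quasi-likelihood fit), calls that describe genes selected on these levels and do not test them. The comparison was one in which 39.9% of all genes were called and 20.5% were called higher. Their median log2 difference was 1.56, against -0.01 over all genes. With own spike-ins, 5 of the 8 (S100a6, Ahnak, Anxa1, Anxa2 and Anxa3) stayed higher and past the threshold. S100a10 and Anxa5 turned lower and past it, S100a11 had a negative value that was not past it, and of all genes called the share that was higher went from 51.4% to 1.75%. Of the 17209 genes compared, own spike-ins called 270 higher and 15128 lower, so a lower call was the typical outcome. In clone 5F the genes past the threshold were S100a6, Ahnak, Anxa1, Anxa2 and Anxa3, all higher, in a comparison that called 22.6% of genes and 11.9% higher. The median was 0.23, against 0.00 over all genes. Leaving out replicate 1 of every group left 2 of these 5 past the threshold, and leaving out replicate 2 left 3. Own spike-ins left 3 (S100a6, Ahnak and Anxa1) and lowered the share of called genes that were higher from 52.5% to 28.9%, with 1114 of 17209 genes called higher and 2740 lower.

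Before 4OHT the clones differed in a gene-specific way. S100a6 was higher in clone 7E than in clone 5F at day 0 (0.72 ± 0.06), and Anxa1 (-1.74 ± 0.11), Anxa2 (-1.50 ± 0.07), Anxa5 (-0.90 ± 0.10), S100a11 (-0.53 ± 0.15) and Anxa3 (-0.34 ± 0.08) were lower. Ahnak (0.00 ± 0.05) and S100a10 (-0.09 ± 0.06) were not past the threshold. With own spike-ins both were past it and lower (-0.16 ± 0.06 and -0.25 ± 0.06), and all 8 genes were then past it, S100a6 as the 1 higher gene. This comparison called 36.2% of all genes, 18.1% in each direction. With own spike-ins the share of called genes that were higher went from 49.9% to 20.1%, with 1573 of 17209 genes called higher and 6269 lower. Same-numbered libraries of the clones pair on a given day, and with a replicate block within the day S100a10 was also past the threshold (-0.10), with the other members' calls as before. Markers of primitive endoderm, a lineage that can arise in mESC cultures, moved with this comparison. All 8 of 8 such markers were lower in clone 7E at day 0 under both scalings, none was at 0 counts, and their summed level was 1625 to 1671 CPM in clone 5F and 425 to 437 CPM in clone 7E, with Sox17 at 10.4 and 1.04 CPM and Gata4 at 35.5 and 3.22 CPM. At day 4 the sum was 1546 to 1659 CPM in clone 5F and 671 to 733 CPM in clone 7E. In clone 7E, 3 of the 8 markers were higher than at day 0 and past the threshold (0 higher and 7 lower with own spike-ins). Of that sum Col4a1 went from 120 to 246 CPM and Sparc from 163 to 289.9 CPM, while Gata4 was at 3.22 and 3.55 CPM and Sox17 at 1.04 and 0.991 CPM. The part of these markers in the differences was not tested.

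The difference between the clones in their day 4 response was positive and past the threshold for all 8 genes, again a description of genes selected on these levels, in a comparison that called 11.9% of genes and 6.65% in that direction. It was largest for Anxa1 (1.90 ± 0.14) and S100a6 (1.79 ± 0.09), intermediate for Anxa2 (1.37 ± 0.09) and Anxa3 (1.28 ± 0.11), and smallest for Anxa5 (0.56 ± 0.13). S100a10 (0.77 ± 0.09), S100a11 (0.76 ± 0.20) and Ahnak (0.71 ± 0.08) lay between. With own spike-ins, Anxa1, S100a6, Anxa2 and Anxa3 stayed positive while S100a10 (-0.26), S100a11 (-0.26), Ahnak (-0.31) and Anxa5 (-0.47) turned negative, that of S100a11 not past the threshold. The share of called genes that were higher went from 55.7% to 0.376%, with 54 of 17209 genes called higher and 14318 lower. With the replicate block within the day, 4151 genes were past the threshold in place of 2056. Without replicate 1 of every group Anxa5 was no longer past the threshold, without replicate 2 neither were Anxa5 and S100a11, and without replicate 3 S100a11 was not. Counts of higher and lower markers here are of those past the threshold. In this difference between responses, 3 of the 4 trophoblast markers tested were higher and 0 lower (0 and 1 with own spike-ins). ES cell markers gave 0 higher and 2 lower of 8 (0 and 8), and fibroblast markers 1 and 0 of 4 (0 and 1). Neuroectoderm markers gave 1 and 1 of 3 (0 and 2), and mesendoderm markers 1 and 0 of 4 (0 and 3). The counts that follow are for day 4 against day 0 in clone 7E, which called 20.5% of genes higher and 19.4% lower. All 4 trophoblast markers tested were higher there (2 higher and 1 lower with own spike-ins). Their summed level was 79.3 to 81.0 CPM at day 0 and 123.7 to 124.7 CPM at day 4 in clone 7E. In clone 5F it was 49.7 to 51.3 and 54.5 to 62.9 CPM. Over the same days the ES cell marker sum of clone 7E went from 3110 to 3222 CPM to 2695 to 2755 CPM, with 7 of 8 markers lower (8 with own spike-ins). Fibroblast markers summed to 2.34 to 9.51 CPM over the 4 groups, with 3 of 4 tested higher in clone 7E at day 4 (1 with own spike-ins). Neuroectoderm markers, summing to 82.0 to 178 CPM, and mesendoderm markers, summing to 7.34 to 14.0 CPM, gave 1 higher and 2 lower of 3 and 1 higher and 0 lower of 4 in that comparison (1 and 2, and 0 and 3, with own spike-ins). Most of the trophoblast sum was Tfap2c, at 75.6 and 109 CPM in clone 7E at day 0 and day 4 (own spike-ins -0.57). In the same groups Krt7 was at 3.62 and 11.6 CPM, Gata3 at 0.472 and 2.34 CPM and Cdx2 at 0.600 and 1.03 CPM. Elf5, a defining trophoblast gene, was at 0.0832 CPM or less in every group. The parts of these lineage markers in the response were not tested.

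**Figure D2:**
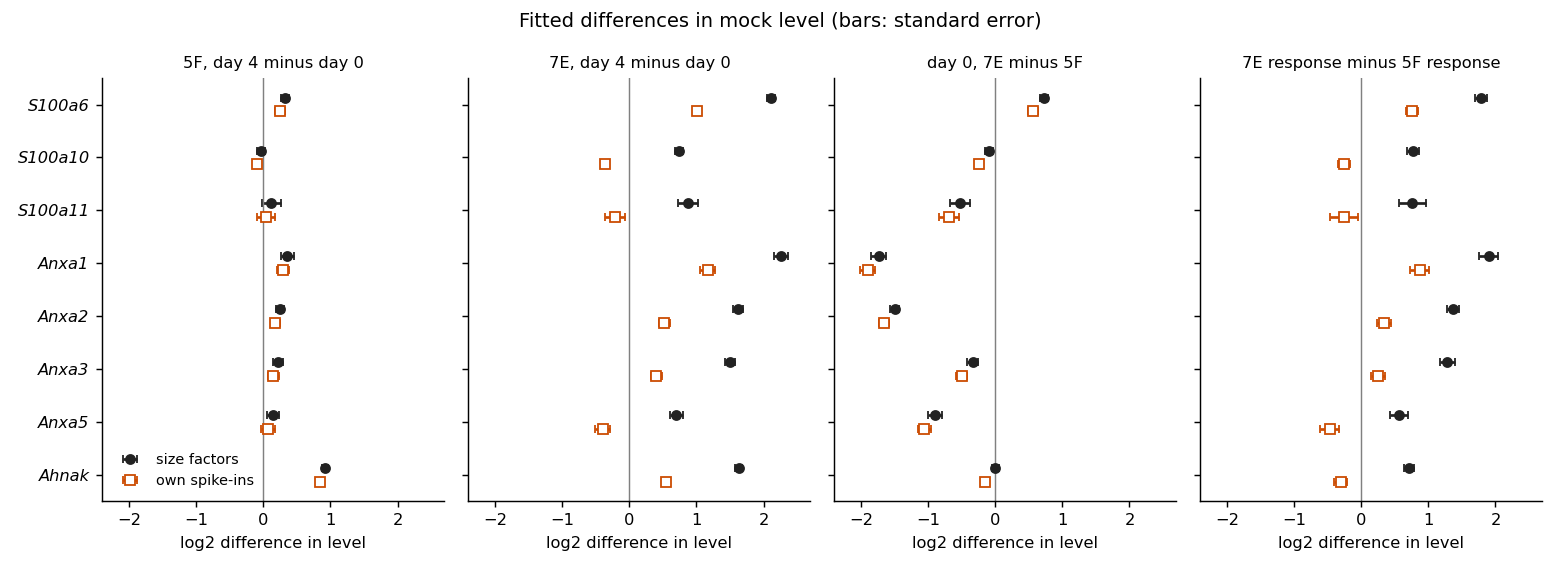
Fitted log2 differences in mock level for the 8 genes in the 4 comparisons, with standard errors, under size factors (filled circles) and under each library's own spike-ins (open squares). For the day 4 difference in clone 7E all 8 filled circles lie to the right of 0, while the squares of S100a10, S100a11 and Anxa5 lie to the left. At day 0 the clones differ most in Anxa1 and Anxa2.

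Across the 12 mock libraries the 8 genes fell into more than a single pattern. Pearson's r on log2(CPM + 1) was 0.977 between Anxa1 and Anxa2, 0.949 between S100a10 and Anxa3, 0.927 between Anxa2 and Anxa5 and 0.923 between S100a6 and S100a10. It was 0.418 between S100a10 and Anxa2, the subunits of 1 complex, and 0.141 between S100a6 and Anxa2. The 12 points share 4 groups, so these values describe the group means. Among 8736 genes, those closest to S100a6 were Nars (r = 0.995), Ctnna1 (0.993), Ptgr1 (0.992), Fam107b (0.991) and Perp (0.990). The correlation leaves out the size of a change. From day 0 to day 4 in clone 7E, S100a6 went from 53.6 to 231 CPM, Nars from 458 to 601 and Ctnna1 from 836 to 974. Ptgr1 went from 41.1 to 66.4 CPM, Fam107b from 17.5 to 44.5 and Perp from 80.8 to 160. The closest to Anxa2 were Lrpap1 (0.996), Arl4c (0.989), Nefl (0.986), Pvr (0.985) and Peg10 (0.981). Among those closest to Ahnak were Rassf1 (0.995), Tgm1 (0.993), Plagl1 (0.990) and Slc1a4 (0.990). None of these genes was among the closest of more than 1 member.

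Related genes outside the 9 were examined as lists, with adjusted p by edgeR and Benjamini-Hochberg adjustment over all genes. The lists too were chosen with earlier results of these data known, so their calls and adjusted p describe these genes and do not test them. Those counted as higher or lower are past the threshold. Over all genes, day 4 in clone 7E called 20.5% higher and 19.4% lower, and day 4 in clone 5F 11.9% and 10.8%. Between the clones at day 0 it was 18.1% in each direction. With own spike-ins, clone 7E at day 4 had 270 of 17209 genes called higher and 15128 lower, so a lower call was typical. Clone 5F then had 1114 and 2740, and the day 0 comparison 1573 and 6269. Of 12 other S100 genes, 6 were tested, and 4 were higher and 0 lower in clone 7E at day 4, whereas own spike-ins gave 1 higher and 3 lower. S100a16 went from 1.83 ± 0.113 to 2.97 ± 0.405 CPM (0.70 ± 0.16, adjusted p = 0.0013, own spike-ins -0.40), and S100a1 from 0.837 ± 0.114 to 1.39 ± 0.138 CPM (0.72 ± 0.22, adjusted p = 0.010, own spike-ins -0.37). S100a14 (0.613 ± 0.231 CPM at day 4) and S100a3 (0.556 ± 0.129 CPM) were also past the threshold but near the floor of detection, and no fold is given for them. The 12 other S100 genes together summed to 6.49 to 10.1 CPM over the 4 groups, less than S100a6 alone. In clone 5F, 0 of the 6 were past the threshold.

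Of 8 other annexin genes, 7 were tested, and 4 were higher and 0 lower in clone 7E at day 4, against 0 higher and 6 lower with own spike-ins. Anxa8 differed most, from 10.3 ± 1.35 to 17.4 ± 1.11 CPM (0.75 ± 0.09, adjusted p = 4.4e-07, own spike-ins -0.35), followed by Anxa7 (0.33 ± 0.05, adjusted p = 3.5e-06, own spike-ins -0.77). Anxa7 and Anxa6 were the most abundant of them, at 123 ± 3.45 and 93.5 ± 2.14 CPM in clone 7E at day 0. The difference of Anxa8 was close to that of the member Anxa5 (0.70 ± 0.10, own spike-ins -0.40). In clone 5F, 0 of the 7 were higher and 2 were lower, Anxa4 (-0.20 ± 0.06, adjusted p = 0.013, own spike-ins -0.27) and Anxa9 (-1.35 ± 0.41, adjusted p = 0.019, own spike-ins -1.43), the latter at under 1 CPM on both days. At day 0 Anxa8 was higher in clone 7E (1.31 ± 0.11, adjusted p = 6.4e-10), opposite in sign to Anxa1 and Anxa2, and remained so with own spike-ins (1.15).

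Genes of membrane repair and of AHNAK's partners followed, with 7 of 9 tested higher and 0 lower in clone 7E at day 4, against 0 higher and 4 lower with own spike-ins. Myof, a ferlin that fuses membranes, differed by 1.14 ± 0.05 (adjusted p = 4.1e-15, own spike-ins 0.05), and Capn2, a calcium-dependent protease, by 0.94 ± 0.05 (adjusted p = 3.7e-12, own spike-ins -0.16). In clone 5F, 4 of the 9 were higher (2 with own spike-ins), among them Myof (0.48 ± 0.04, adjusted p = 6.9e-08, own spike-ins 0.41). Of 4 genes of plasminogen activation, 3 were higher and 0 lower in clone 7E at day 4, against 1 higher and 1 lower with own spike-ins. Plaur, the urokinase receptor, went from 23.2 ± 1.02 to 72.4 ± 4.75 CPM (1.64 ± 0.06, adjusted p = 1.6e-15) and stayed higher with own spike-ins (0.54). It was also the only one of the 4 past the threshold in clone 5F (0.53 ± 0.06, adjusted p = 1.0e-06, own spike-ins 0.46).

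Of 14 genes for actin-binding proteins, intermediate filaments and galectins, 11 were higher and 0 lower in clone 7E at day 4, against 4 higher and 7 lower with own spike-ins. Tpm1 (1.00 ± 0.06, adjusted p = 3.6e-12, own spike-ins -0.10) and Tagln2 (0.58 ± 0.05, adjusted p = 5.9e-10, own spike-ins -0.52) were among the most abundant. At day 0, 10 of the 14 were lower in clone 7E than in clone 5F and 1 was higher, the sign seen for Anxa1 and Anxa2, and with own spike-ins 12 were lower. Vim, the intermediate filament protein of mesenchymal cells, differed by -0.62 ± 0.04 (adjusted p = 1.1e-10, own spike-ins -0.78). The difference between the clones in the day 4 response was positive and past the threshold for 10 of the 14 and for 5 of the 9 membrane repair genes. The same held for 2 of the 4 plasminogen genes, 3 of the 7 annexins and 1 of the 6 S100 genes, and 0 were negative and past it. Over all genes this comparison called 6.65% higher and 5.29% lower. With own spike-ins the same lists gave 4 positive and 6 negative past the threshold, 0 and 7, 0 and 2, 0 and 5, and 0 and 3.

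The decay of each transcript was followed over 360 min of actinomycin D, with libraries scaled among themselves at each time and all times joined through the spike-ins. The genes of the set were lost at unlike rates. Ahnak was lost fastest: in clone 5F at day 0, 76.5% of the mock level was left at 120 min, 46.5% at 240 min and 31.4% at 360 min. S100a6 was lost slowly, with 90.4, 72.8 and 70.3% left at the same times. The annexins lay between, with 53.1% (Anxa3) to 67.7% (Anxa5) left at 360 min.

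Half-lives, from a straight line through ln(normalised count + 1) against time, are given with the interval of the slope ± 1 SE. In clone 5F at day 0 the half-life of S100a6 was 654 min (544 to 820), that of Anxa5 610.1 min (526 to 725) and that of Anxa2 557 min (505 to 620.1). Those of Anxa1 (485 min), S100a11 (468 min), S100a10 (446 min) and Anxa3 (397 min) followed. The median mRNA had 281 min in this group, over 11545 mRNAs. Ahnak alone lay below it, at 211 min (201 to 223). Apart from Ahnak, the intervals of neighbours in this order overlapped.

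In clone 7E at day 0 the half-lives were 541 min for S100a6, 462 min for S100a11, 431 min for Anxa5, 429 min for Anxa1, 401 min for Anxa2, 376 min for S100a10, 344 min for Anxa3 and 204 min for Ahnak. At day 4 in this clone all 8 were shorter: 391 min for S100a6 (354 to 437), 386 min for Anxa5, 338 min for S100a10, 322 min for Anxa2 (298 to 351), 305 min for S100a11, 283 min for Anxa3, 275 min for Anxa1 (252 to 303) and 182 min for Ahnak (171 to 195). The mock libraries, in which the same 8 genes were higher at day 4, are also the first point of these curves, so levels and half-lives share them. With own spike-ins 6 of the 8 were shorter, and without the mock libraries 5 were. In clone 5F, 5 of the 8 were shorter at day 4 (3 without replicate 2), with Anxa5 at 720.1 min, S100a6 at 672 min and S100a10 at 454 min being the exceptions. Over the 4 groups, 27 of the 32 half-lives lay above the median mRNA, the others being the 4 of Ahnak and that of Anxa1 in clone 7E at day 4. Without the mock libraries 16 did. At each time the 4 groups were scaled together with 1 spike-in factor, which holds the median mRNA nearly equal between groups. With own spike-ins the median was 288 min in clone 5F at day 0 and 273 min at day 4. In clone 7E it was then 285 min at day 0 and 315 min at day 4.

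No member passed the threshold for a difference in decay slope in any of the 3 comparisons, each over 18623 genes. By edgeR, 0.29% of genes were called in clone 5F at day 4 (0.166% with a higher and 0.124% with a lower slope), 1.46% in clone 7E at day 4 (0.569% and 0.891%) and 0.043% between the clones at day 0 (0.0376% and 0.00537%). These are 54, 272 and 8 genes, against 770, 1871 and 889 at an unadjusted p under 0.05 and 68, 375 and 30 by DESeq2, and under DESeq2 too 0 members passed. With own spike-ins the share of called genes whose slope was higher went from 57.4 to 75.0%, from 39.0 to 72.7% and from 87.5 to 75.0%. With a replicate block within day and time the clones differed at day 0 in 143 genes, still with 0 members. In clone 7E the slope difference was below 0 for all 8 expressed genes, among them -0.075 ± 0.030 log2 per hour for Anxa1, -0.043 ± 0.024 for S100a6, -0.037 ± 0.019 for Anxa2 and -0.036 ± 0.021 for Ahnak. With own spike-ins the half-lives of S100a10 (382 to 385 min) and Anxa5 (440 to 450 min) were instead longer at day 4 in this clone. In clone 5F the largest among the 8 expressed genes was that of Ahnak, -0.055 ± 0.022 log2 per hour. These directions rest on the mock libraries for some genes. In straight lines fitted without them, the half-life of Ahnak was longer at day 4 in both clones (189 to 198 min in clone 5F and 189 to 237 min in clone 7E). In clone 7E those of Anxa2 (375 to 416 min) and S100a11 (351 to 474 min) were longer too, and in clone 5F those of S100a10 and Anxa5, longer at day 4 with the mock libraries, were shorter without them. The share of Ahnak left at 120 min differed between the days in both clones. At 120 min, 75.5 and 77.4% of the mock level was left in the libraries of clone 5F at day 0 against 52.2 to 60.1% at day 4, and 70.5 to 74.5% against 46.0 to 52.2% in clone 7E. The days did not overlap in either clone. At 360 min they were closer but still apart, as 31.4 ± 2.00% and 24.1 ± 1.15% were left in clone 5F and 30.1 ± 0.770% and 24.5 ± 1.47% in clone 7E. Its curve at day 4 was thus steepest between the mock level and 120 min, which a straight line does not show. The mock cells had DMSO for 360 min, so this step is not a time course from 0 min. A faster early loss was not tested.

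**Figure D3:**
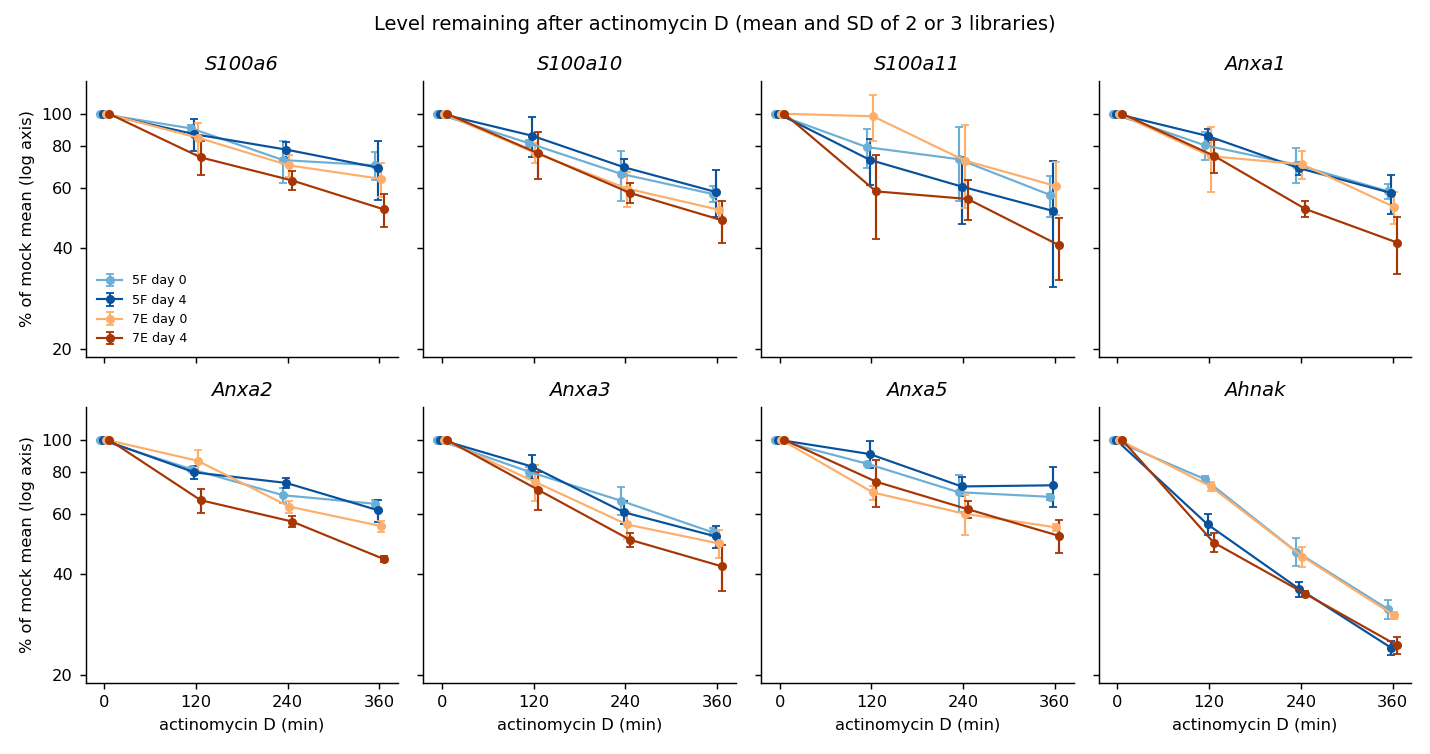
Level left after 120, 240 and 360 min of actinomycin D, as a percentage of the mock mean (drawn at 0 min) on a log axis, one panel per gene and one line per clone and day, with the mean and SD of 2 or 3 libraries. Ahnak falls fastest, and its day 4 lines lie below its day 0 lines at 120 min in both clones. In the S100a6 panel the line of clone 7E at day 4 is lowest, ending at 52.0%.

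**Figure D4:**
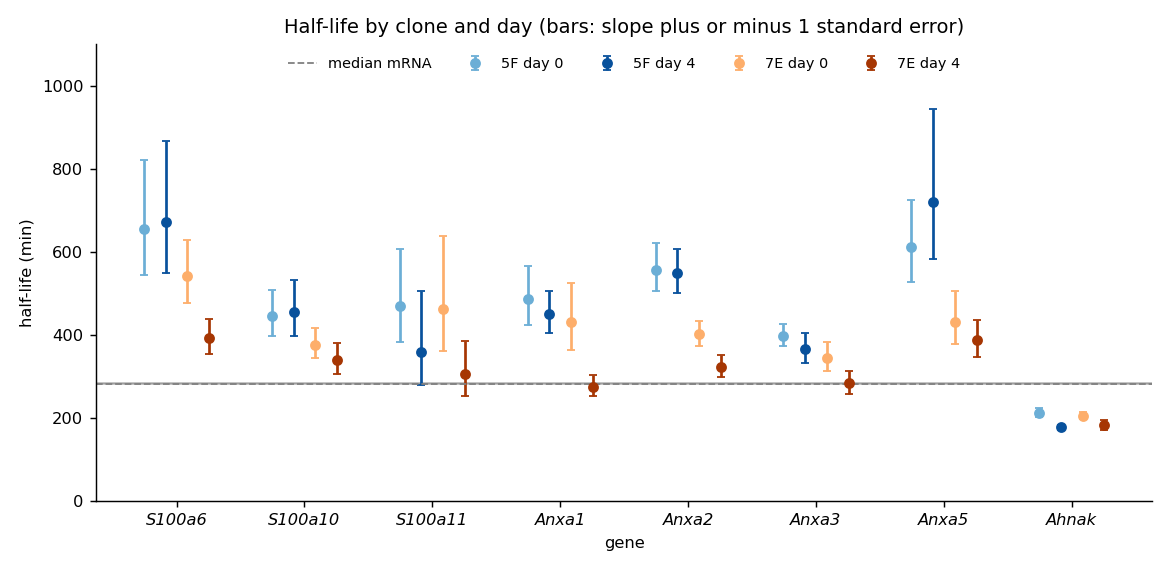
Half-life in min of the 8 genes in each clone and day, with the interval of the slope ± 1 SE. The dashed line and band are the median mRNA (281 to 283 min), which the shared scaling holds nearly equal between groups. The Ahnak points lie below the line in all 4 groups, and clone 7E at day 4 is the lowest point for every gene except Ahnak.

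Of the other lists, 3 genes were past the threshold for a different slope in clone 7E at day 4: Anxa7 (-0.08 ± 0.02 log2 per hour, adjusted p = 0.0056), Anxa8 (0.11 ± 0.03, adjusted p = 0.017) and Plat (-0.14 ± 0.04, adjusted p = 0.046, by edgeR). These 2 annexins went in opposite directions. In clone 5F, and between the clones at day 0, 0 genes of these lists were past it.

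Binding by decay factors was measured by CRAC, in which the tagged protein is crosslinked to RNA in living cells and the attached RNA is sequenced. The deposited values are pooled over replicates and give, for each mRNA, the fraction of scaled counts that falls to MTR4 (nuclear exosome), SKIV2L (cytoplasmic 3′ to 5′ decay) or XRN1 (5′ to 3′ decay), with no replicate error. S100a6 had a SKIV2L fraction of 0.740, above 99.5% of the 7240 mRNAs, where the median was 0.267. Its XRN1 fraction was 0.0736, which only 1.98% of mRNAs fell below. Anxa3 had a similar balance, with 0.598 for SKIV2L (percentile 95.8) and 0.0966 for XRN1 (percentile 3.88). S100a10 (0.439, percentile 81.2) and Ahnak (0.437, percentile 80.9) had less extreme SKIV2L fractions, and their XRN1 fractions were 0.374 and 0.267, against a median of 0.337.

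The lines used for CRAC were not the same as those followed over time, and the mRNA level differed between them. S100a6 was at 35.5, 56.9 and 23.0 RPKM in the lines for XRN1, SKIV2L and MTR4, highest where SKIV2L was tagged. After the depositors' division by RPKM, the SKIV2L value of S100a6 was at percentile 84.3, that of S100a10 at 71.3, that of Ahnak at 88.4 and that of Anxa3 at 88.2. All 4 thus stayed above the median, while S100a6 lost its place near the top. AVEN binding, relative to the sum of the 3 decay factors, was 1.52 for Ahnak, above 99.8% of mRNAs and against a median of 0.295. It was 0.512 for S100a10 (percentile 88.8), 0.476 for Anxa3 (percentile 84.8) and 0.344 for S100a6 (percentile 62.6). The genes differ widely in length, which these ratios leave out: the transcripts used had 464 nt for S100a6, 685 nt for S100a10, 1595 nt for Anxa3 and 18099 nt for Ahnak, the last longer than 99.9% of mRNAs. Of these 4 genes S100a6 had the longest half-life in each group and Ahnak the shortest. S100a6 had the highest SKIV2L value before division by RPKM, and Ahnak had it after (0.497, against 0.495 for Anxa3 and 0.462 for S100a6).

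**Figure D5:**
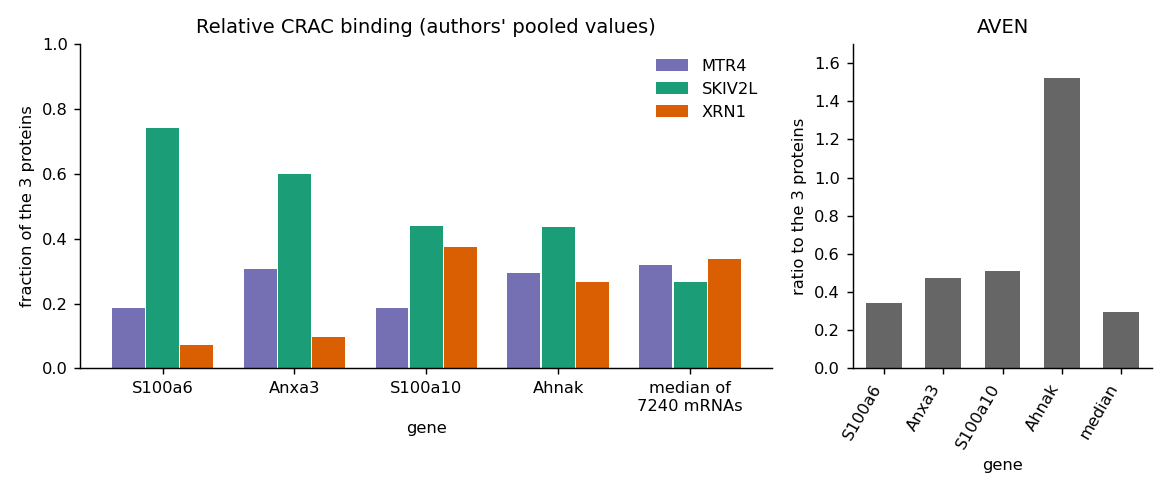
Left, fraction of CRAC counts on MTR4, SKIV2L and XRN1 for the 4 genes with values and for the median of 7240 mRNAs (vertical axis 0 to 1). Right, AVEN counts relative to the sum of the 3. The SKIV2L bars of S100a6 and Anxa3 are highest, 0.740 and 0.598, and the AVEN bar of Ahnak, 1.52, exceeds the others.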

How the data were processed

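RNA-seq libraries were made with Ribo-Zero and TruSeq v2 chemistry, which does not keep the strand. The authors mapped the reads with STAR to mm10 (GRCm38) with ERCC sequences added and deposited raw counts of uniquely mapped reads per gene, so reads shared by near-identical genes were dropped. The authors' deposited binding values are a fraction per mRNA for MTR4, SKIV2L and XRN1 and a ratio for AVEN, made from pooled CRAC counts, beside the authors' RPKM values of the tagged lines and a score, the fraction divided by relative RPKM. Those pooled values carry no replicate error. The deposited half-lives and the columns of fold changes and p-values were not used. Every count column was matched to a sample.

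Symbols were taken from Gencode M21 for 53275 of 53380 genes. Counts were scaled by DESeq2 size factors within each time point, and for decay multiplied by 1 factor per time point (1, 0.657, 0.538 and 0.441 at 0, 120, 240 and 360 min) from 34 ERCC sequences with a mean above 50 counts. The 12 mock libraries were fitted together and the 47 libraries together for decay slopes, with edgeR's quasi-likelihood test after filterByExpr and a Benjamini-Hochberg threshold of 0.05 (R 4.3.3, edgeR 4.0.16, limma 3.58.1, DESeq2 1.42.0, pandas 2.3.3). Half-lives used a pseudocount of 1, with mRNAs at a mean of 50 or more mock counts as the background. The scripts were tested on simulated data. No 2 replicate libraries agreed within sampling noise.

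The members and the lists were chosen with earlier results of these data known. Named are the 9 members, up to 4 genes past the threshold with the highest mean count in each further list, the 5 genes closest to S100a6, Anxa2 and Ahnak among genes at a mean of 10 CPM or more, Skiv2l and Aven, and marker genes for lineages. Sox17, Gata4, Col4a1, Sparc, Elf5, Tfap2c, Krt7, Gata3, Cdx2 and Anxa9 were named after their values were seen. Same-numbered libraries of both clones on the same day and time deviated together in all 23 pairs (correlation of deviations from the group means 0.133 to 0.837), so the numbers pair the clones, whereas those of 1 clone on different days ranged from -0.35 to 0.642. Alternatives were own spike-ins, TMM, DESeq2, no filter on low counts, each clone alone, a replicate block, single replicates or time points left out, a pseudocount of 0.5 and RPKM-divided binding. Among the genes these rules name, 2 are not reported here, 1 of them left out of its list and its counts. The replicate blocks within a day were chosen after seeing the data.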

Additional observations from a re-analysis of the deposited data

Results flagged for a closer look

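The results listed here were picked out because the day 4 response of clone 7E differed from that of clone 5F in edgeR's test of the difference itself. Values are the response of clone 7E minus that of clone 5F, in log2. Among the members it was 1.90 for Anxa1, 1.79 for S100a6, 1.37 for Anxa2, 1.28 for Anxa3, 0.77 for S100a10, 0.76 for S100a11, 0.71 for Ahnak and 0.56 for Anxa5. These members were chosen with the values known, so this list repeats how they were chosen.

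Among related genes it was 1.04 for S100a1, 0.45 for Anxa8, 0.40 for Anxa4 and 0.39 for Anxa7. For genes of membrane repair it was 0.79 for Capn2, 0.66 for Myof, 0.65 for Cavin1 and 0.22 for Capns1, and for plasminogen activation 1.24 for Plat and 1.11 for Plaur. For cytoskeletal genes it was 0.90 for Tpm1, 0.56 for Tagln2, 0.51 for Tpm4 and 0.33 for Vim. With own spike-ins, whose median over all genes was -1.03, S100a6, Anxa1, Anxa2 and Anxa3 stayed positive and past the threshold. S100a1 (0.02 ± 0.35), Plaur (0.08 ± 0.10), Plat (0.21 ± 0.22), Tpm1 (-0.13 ± 0.08) and S100a11 (-0.26 ± 0.21) were not past it, and the others listed were past it with a negative sign.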

How the results depend on the processing

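All 8 reversals of mock-level differences came with own spike-ins: in clone 7E at day 4 S100a10 (-0.36), S100a11 (-0.22) and Anxa5 (-0.40), between the clones at day 0 Ahnak (-0.16), and in the difference between responses S100a10 (-0.26), S100a11 (-0.26), Ahnak (-0.31) and Anxa5 (-0.47). Of the other member values of log2 difference under an alternative, 267 kept direction and call, 11 lost the call and 2 gained it, while 57 half-lives moved beyond their error and 167 did not.

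Members past the threshold in clone 5F went from 5 to 3 with own spike-ins and became 2 to 5 when 1 replicate number was left out. Genes called became 1669 to 3724 in place of 3896 in clone 5F when a replicate was left out, went from 6862 to 15398 in clone 7E with own spike-ins, and became 4089 to 5328 in place of 6231 between the clones with a replicate left out. For the difference between responses, 2056 became 14372 with own spike-ins, 4151 with the replicate block within the day and 753 to 1446 with a replicate left out, lowest without replicate 1.

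For decay in clone 5F, 54 genes became 32 with own spike-ins, 19 without the mock libraries and 10 to 17 with a replicate left out. In clone 7E, 272 became 128 with own spike-ins, 173 without a filter, 117 without 360 min and 67 to 85 with a replicate left out. Between the clones, 8 became 4 with own spike-ins, 28 with TMM, 30 with DESeq2, 60 without the mock libraries, 2 without 360 min, 143 with the replicate block within day and time, and 0 whichever replicate was left out. Half-lives above the median mRNA went from 27 to 16 without the mock libraries. Members with a shorter half-life at day 4 went from 8 to 5 in clone 7E without the mock libraries and became 3 to 6 in place of 5 in clone 5F with a replicate left out. Without the mock libraries the day 4 change of half-life turned to longer for Ahnak in both clones and for Anxa2 and S100a11 in clone 7E. The causes were not tested. A replicate block over all groups changed no member's call, and the block within the day changed only that of S100a10 at day 0. S100a4, at 10 counts or fewer in each mock library, could not be compared at this depth.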
